A study of Mus musculus with 20 samples.

Results

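Adding LDN, an inhibitor of bone morphogenetic protein (BMP) receptors, to trunk-like structures already grown with CHIR99021 was examined in 6 of the 20 samples of the series. These were the 3 bulk RNA sequencing libraries of TLSMGCL and the 3 of TLSMGC, chosen by their labelled treatment. All came from the mouse embryonic stem cell line F1G4, which carries the T::H2B-mCherry and Sox2::H2B-Venus reporters, so both groups share the line and its 2 reporters. In both groups 200 to 250 cells per well formed aggregates for 48 h, were then given CHIR99021 (3 µM), which switches on WNT signalling by blocking the kinase GSK3, and were collected at 120 h. TLSMGC structures grew with further CHIR99021 in Matrigel, an extract of basement membrane that gels. TLSMGCL structures grew in Matrigel with further CHIR99021 and LDN. The dose and hours of LDN and of the later CHIR99021 are not given in the sources used here. Each library pooled 6 structures picked for an asymmetric pole, so it describes picked structures of 1 line, and the labels call the 3 libraries of a group biological replicates. Levels in TLSMG (Matrigel alone, 120 h), Gastruloid (no Matrigel, 120 h) and 96 h libraries, 3 each from the same line, are given for orientation, and these libraries shared the estimate of the spread.

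BMPs are secreted ligands that bind type I and type II serine/threonine kinase receptors, which phosphorylate SMAD1, SMAD5 and SMAD9. These enter the nucleus with SMAD4 and raise targets such as the Id genes, whose products block bHLH transcription factors. In the embryonic trunk, BMP signalling is strong laterally and dorsally, where lateral plate and intermediate mesoderm and the roof of the neural tube form, and noggin and other antagonists keep it low in the somites. The comparison asks what LDN changed on top of CHIR99021.

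For 3 genes of the results below, a BMP target (Id3), a target that also marks the roof of the neural tube (Msx1) and a BMP antagonist (Grem1), the 250 bases before the RefSeq transcript start were read from RefSeq's table for GRCm38.p6. They lie at chr4:136143572-136143821 on the forward strand (Id3), chr5:37824586-37824835 on the reverse strand (Msx1) and chr2:113758649-113758898 on the reverse strand (Grem1). The Id3 window falls inside the Id3 span of the quantified annotation, which starts farther upstream, at 136143497. Of 20 genes looked up, 12 matched, with 13 windows. Capitals mark GGCGCC, a GC-rich motif of SMAD1 and SMAD5, and CAGAC, the SMAD box, each searched on both strands, so a CAGAC on the other strand reads GTCTG.
Id3: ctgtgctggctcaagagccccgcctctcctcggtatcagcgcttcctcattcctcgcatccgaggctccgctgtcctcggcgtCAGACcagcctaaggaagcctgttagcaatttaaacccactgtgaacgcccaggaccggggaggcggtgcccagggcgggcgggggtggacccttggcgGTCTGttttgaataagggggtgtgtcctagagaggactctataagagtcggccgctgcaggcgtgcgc
Msx1: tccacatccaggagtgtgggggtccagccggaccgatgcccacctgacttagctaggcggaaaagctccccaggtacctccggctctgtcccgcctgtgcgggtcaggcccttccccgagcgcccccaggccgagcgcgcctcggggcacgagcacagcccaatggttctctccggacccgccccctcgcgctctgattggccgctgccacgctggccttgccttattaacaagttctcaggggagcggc
Grem1: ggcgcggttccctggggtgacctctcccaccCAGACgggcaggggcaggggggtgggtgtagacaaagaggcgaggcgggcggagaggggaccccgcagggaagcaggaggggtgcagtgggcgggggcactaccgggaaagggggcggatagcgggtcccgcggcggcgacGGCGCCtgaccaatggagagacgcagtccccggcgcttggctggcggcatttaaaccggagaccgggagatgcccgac
The Id3 window held CAGAC starting 167 bases before the transcript start and again, on the other strand, 68 bases before it. The Grem1 window held GGCGCC 78 bases and CAGAC 219 bases before the start. None of these letter strings, nor the palindrome GTCTAGAC, occurred in the Msx1 window. Of 32851 windows of this length, 42.19% held CAGAC, 9.59% GGCGCC and 0.17% GTCTAGAC, so a match describes the letters only.

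Levels are in TPM, transcript abundance per unit of gene length, scaled to the same sum in every library. Relative depth, as deposited coverage per unit of FPKM, was 3.12 to 4.74 in TLSMGC and 3.18 to 4.68 in TLSMGCL, and the labels state at least 23700000 fragments per sample. TLSMGC replicate 3 and TLSMGCL replicate 2 resembled each other (Pearson's r = 0.988 across genes) more than either resembled the libraries of its own group, so the main counts below are also given without both. Mitochondrial mRNA took 0.678% to 1.07% of TPM in TLSMGC and 0.370% to 1.14% in TLSMGCL, lowest in TLSMGCL replicate 2. The reporter genes' own transcripts, T and Sox2, were present in all 6 libraries, at means of 44.3 and 26.9 TPM in TLSMGC and 33.6 and 31.9 TPM in TLSMGCL.

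With LDN, BMP target genes (Id1, Id3), the BMP antagonists Nog and Grem1, and regulators of intermediate mesoderm (Pax2, Osr1, Lhx1) fell, while Nbl1, Bmp3, Bmp7 and Aldh1a2 rose. Leaving out single libraries lost the Bmp3 and Bmp7 calls in 4 of 6 cases each, and the Nbl1 call in 1. Of 14290 genes tested, 169 (1.18%) differed at an adjusted p under 0.05 (limma, two-sided, Benjamini-Hochberg over all genes), 58 (0.406%) higher and 111 (0.777%) lower in TLSMGCL. Of all genes tested, 12.9% had an unadjusted p under 0.05. The median log2 difference was 0.71 among the genes that rose and -0.70 among those that fell, and 10 of the 58 and 36 of the 111 reached an absolute log2 difference of 1. Differences are on the log2(TPM + 1) scale, which understates changes of genes with low TPM, and their median over all genes was -0.04. The libraries of the 2 groups did not overlap in any of the 169, and in 15.8% of all genes tested they did not overlap either. The calls were made on these same libraries, so the lack of overlap is no separate support for them. Scaling moved the split: 34.3% of the calls were higher as tested, 50.7% (104 higher, 101 lower) after median-of-ratios scaling and 44.6% (90 and 112) with FPKM. Leaving out TLSMGC replicate 3 and TLSMGCL replicate 2 together, an alternative added after seeing the data, gave 36 higher and 111 lower, 87 of these 147 among the 169. In the gene lists described below, it gave 0 higher and 2 lower of the BMP response genes, 0 and 2 of the antagonists, 1 and 1 of the ligands and 0 and 0 of the receptors and SMADs. It gave 4 lower in intermediate mesoderm, 1 lower in each of the lateral plate, dermomyotome, Hox and dorsal neural and crest lists, 1 higher in each of the somite and retinoic acid lists, and no call among presomitic, segmentation, neural tube and WNT target genes. The count also rested on single libraries, and fell to 56 without TLSMGC replicate 2, 70 without TLSMGCL replicate 1 and 78 without TLSMGCL replicate 3. Losing TLSMGC replicate 1 or TLSMGCL replicate 2 cut the lower calls to 60 and 67, with 54 and 56 higher. Of the genes that changed, 9 higher and 21 lower overlap another gene on their strand, and the sources used here do not say whether strand was used in quantification. Pax2, Osr1, Aldh1a2, Emx2, Itga8, Fgf9, Eya2, Nnat, Arhgef26, Lmx1b, Hoxd8, Notch1, Islr, Foxf1, Rasip1, Tcf7 and Meg3 overlap genes annotated on the opposite strand. Whether their reads were kept apart from those of the opposite-strand genes is therefore unknown.

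**Figure D1:**
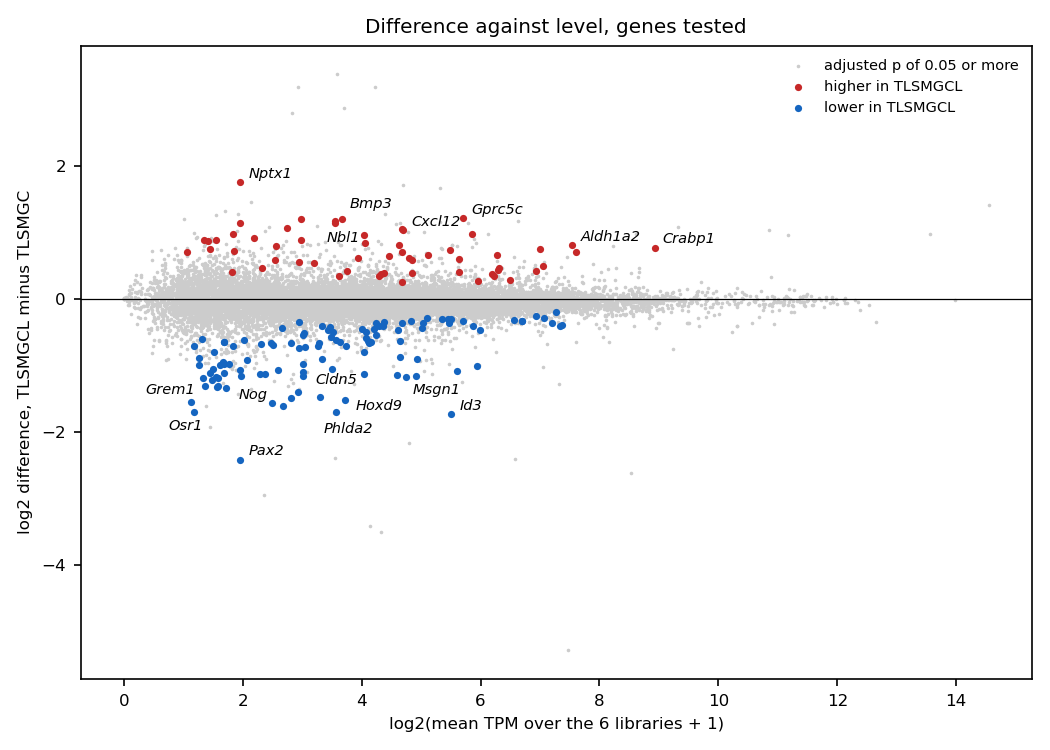
Log2 difference in TPM + 1 between TLSMGCL and TLSMGC (vertical axis) against the log2 mean level over the 6 libraries (horizontal axis), 1 point per gene tested. The 58 red points are genes higher and the 111 blue points genes lower with LDN. Grey points far from 0, some farther than any coloured point, are genes that did not pass the test.

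Among the BMP response genes, Id1, Id3 and Msx1 fell and the antagonist gene Nbl1 rose, 4 of the 15 members tested (of 18 listed). The median log2 difference was -0.27 and 13 of 15 lay below 0, against 60.7% of all genes tested. Under the alternatives, 2 to 4 members were lower. In the libraries with LDN, fewer responding cells and less RNA per cell cannot be told apart, here and for the cell type genes below.

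Id3 (ENSMUSG00000007872.3, chromosome 4, 136143497 to 136145755, build mm10), an inhibitor of bHLH factors, measured 63.3, 70.1 and 73.2 TPM in TLSMGC replicates 1 to 3 and 17.9, 23.0 and 19.4 TPM in TLSMGCL replicates 1 to 3. Every library with LDN lay far below every library without it. The log2 difference was -1.73 ± 0.14 (SE, n = 3 and 3, limma adjusted p = 4.73e-05), a 3.43-fold lower mean. Id1 (ENSMUSG00000042745.9, chromosome 2, 152736251 to 152737410), of the same family, measured 29.9, 33.2 and 33.8 TPM without LDN and 14.5, 14.7 and 12.8 TPM with it. The 2 sets of values did not touch, and the log2 difference was -1.15 ± 0.13 (limma adjusted p = 0.000509). Id2, the third of the family at a high level, measured 59.98, 49.2 and 60.6 TPM against 31.4, 35.3 and 32.4 TPM. Its groups were also apart, but with a log2 difference of -0.75 ± 0.25 it did not pass (limma adjusted p = 0.187). Id2 varied more in the other groups of the shared fit, from 110 to 186 TPM over the 3 TLSMG libraries. Id4 stayed below the filter, at means of 0.450 and 0.476 TPM.

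Msx1 (ENSMUSG00000048450.10, chromosome 5, 37820485 to 37824583), a homeobox gene of the dorsal neural tube and limb mesenchyme, measured 35.5, 44.3 and 42.3 TPM in TLSMGC and 17.6, 19.9 and 15.5 TPM in TLSMGCL. The lowest TLSMGC library stood well above the highest LDN library. This corresponds to a log2 difference of -1.16 ± 0.20 (limma adjusted p = 0.0125), and the call was narrowly lost without TLSMGC replicate 2 (0.0604), TLSMGCL replicate 1 (0.0516), TLSMGCL replicate 3 (0.0573) or both libraries nearest to the other group (0.0541). Its paralog Msx2 went from a mean of 2.95 to 1.74 TPM with an adjusted p of 0.21. Of the inhibitors that BMP signalling itself induces, Smad6 (7.72 and 6.22 TPM without and with LDN), Smad7 (2.52 and 2.01 TPM) and Bambi (5.00 and 3.94 TPM) had lower means with no overlap between libraries, and none passed (limma adjusted p = 0.208, 0.433 and 0.261). Lower levels with LDN without overlap occurred in 10.3% of all genes tested. Atoh8, a bHLH factor gene, stood at 17.0 and 23.8 TPM, the opposite order (adjusted p = 0.0624). The response genes summed to 254 to 270 TPM in TLSMGC and 147 to 160 TPM in TLSMGCL, and to 494 to 564 TPM in TLSMG, the highest of the 5 groups. Id1, Id2, Id3 and Msx1 made up most of the TLSMGC sums. The lower TLSMGCL sums rest on these genes and do not describe the other members. Mean Id3 was 221 TPM in TLSMG, 128 TPM in Gastruloid and 71.3 TPM at 96 h.

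**Figure D2:**
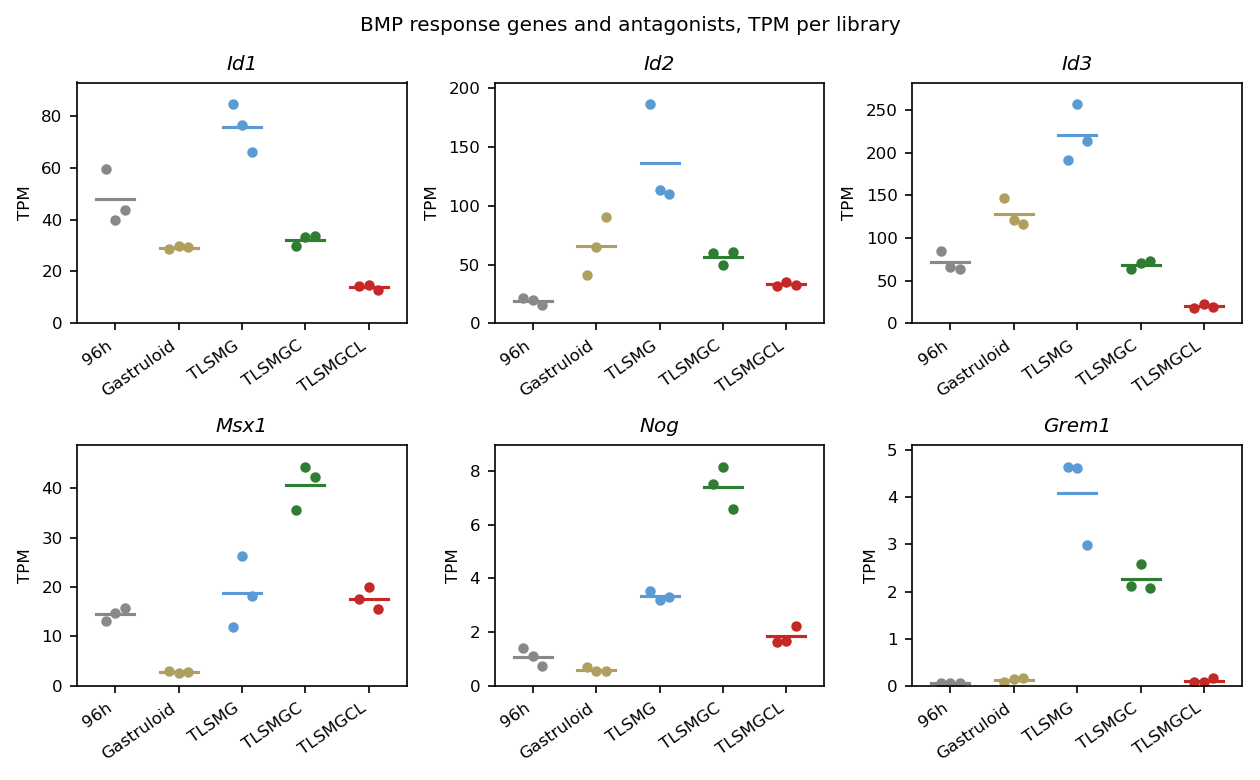
TPM of 4 BMP response genes and 2 antagonists in each of the 15 libraries (points), by group, with bars at group means and linear axes from 0. TLSMGCL (red) lies below TLSMGC (green) in every panel with no overlap, for example 17.9 to 23.0 against 63.3 to 73.2 TPM for Id3.

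Secreted BMP antagonists bind the ligands and keep them from the receptors. Nog and Grem1 fell and Nbl1 rose, 3 of the 12 antagonist genes tested (of 15 listed), with a median log2 difference of 0.03 over the list. Nog (ENSMUSG00000048616.4, chromosome 11, 89300638 to 89302332), which encodes noggin, measured 7.51, 8.15 and 6.57 TPM without LDN and 1.64, 1.67 and 2.21 TPM with it. The lowest TLSMGC library stood well above the highest TLSMGCL library, which was replicate 3. The fit gave a log2 difference of -1.57 ± 0.13 (limma adjusted p = 5.74e-05), a 4.03-fold lower mean. Grem1 (ENSMUSG00000074934.3, chromosome 2, 113746164 to 113758646), the gremlin gene, measured 2.12, 2.59 and 2.07 TPM in TLSMGC and 0.0795, 0.0829 and 0.162 TPM in TLSMGCL. With LDN it was near the low levels of Gastruloid (mean 0.129 TPM) and 96 h (0.0648 TPM), and TLSMG had 4.09 TPM. On the log2 scale the difference was -1.55 ± 0.14 (limma adjusted p = 7.03e-05), and the mean was 20.9-fold lower. Nbl1 (ENSMUSG00000041120.6, chromosome 4, 139082284 to 139092993), of the DAN family, went the other way, from 8.19, 4.87 and 5.98 TPM to 16.2, 14.2 and 14.6 TPM. Each LDN library was above the highest TLSMGC library. Its log2 difference was 1.15 ± 0.19 (limma adjusted p = 0.00935), not called without TLSMGC replicate 2 (0.0523) or both nearest libraries (0.0551). The most abundant of the listed genes stood at like means in the 2 groups: Fstl1 at 140 and 145 TPM and Fst, the follistatin gene, at 65.4 and 68.4 TPM (adjusted p = 0.827 and 0.885). The list leaves out Smoc1 and Sost, which were both higher with LDN (limma adjusted p = 0.00237 and 0.0151). Their means without and with LDN were 148 and 241 TPM for Smoc1 and 1.44 and 4.30 TPM for Sost. Chrd, the chordin gene, stood at 2.33 and 3.63 TPM (adjusted p = 0.153).

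Among the ligands of the BMP and related TGF-β families, Bmp3 and Bmp7 rose and none fell of 14 tested (of 25 listed, 5 of them listed at 0 in all 6 libraries). Without TLSMGC replicate 3, 0 ligand genes were called higher and 1 lower. Bmp7 (ENSMUSG00000008999.7, chromosome 2, 172868012 to 172940321), a classical activating BMP, measured 25.4, 20.5 and 20.4 TPM without LDN and 36.8, 28.0 and 36.5 TPM with it. The groups came close to each other without overlapping, TLSMGCL replicate 2 being the lowest of its group. The fitted log2 difference was 0.59 ± 0.12 (limma adjusted p = 0.0331). Bmp3 (ENSMUSG00000029335.5, chromosome 5, 98854415 to 98884396), which can oppose other BMPs, measured 9.97, 5.08 and 5.36 TPM against 18.8, 13.1 and 17.8 TPM. All 3 LDN libraries were above the highest TLSMGC library. In the fit its log2 difference was 1.21 ± 0.24 (limma adjusted p = 0.0309). Both calls were lost without TLSMGC replicate 2 (adjusted p = 0.125 for Bmp7 and 0.123 for Bmp3), TLSMGC replicate 3 (0.0814 and 0.0779), TLSMGCL replicate 1 (0.127 and 0.117) or TLSMGCL replicate 3 (0.124 and 0.105), and that of Bmp3 also without both nearest libraries (0.0778). Bmp4, the main ligand of ventral and lateral mesoderm, stood at means of 3.58 and 2.57 TPM, Bmp5 at 6.69 and 6.25 TPM and Tgfb2 at 21.3 and 43.1 TPM, without passing (adjusted p = 0.594, 0.899 and 0.119).

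Of 21 receptor and SMAD genes tested, Smad3 rose and none fell, and the median log2 difference was -0.09. Eng had the largest absolute difference of the list and was not called. Without TLSMGC replicate 3, 0 members of this list were called higher and 1 lower. The type I BMP receptor genes Bmpr1a (means of 50.3 and 46.3 TPM without and with LDN) and Acvr1 (10.6 and 10.2 TPM) and the type II gene Bmpr2 (6.98 and 5.47 TPM) had overlapping libraries. The BMP SMAD genes Smad1 (20.1 and 18.8 TPM) and Smad5 (43.4 and 39.8 TPM) overlapped as well. Smad3 (ENSMUSG00000032402.12, chromosome 9, 63646767 to 63757994), which carries activin, Nodal and TGF-β signals, measured 76.0, 60.3 and 61.5 TPM in TLSMGC and 97.7, 79.5 and 96.2 TPM in TLSMGCL. The nearest libraries, TLSMGC replicate 1 and TLSMGCL replicate 2, nearly met. The log2 difference was 0.46 ± 0.10 (limma adjusted p = 0.0475), and the call was lost without TLSMGC replicate 2 (0.183), TLSMGC replicate 3 (0.109), TLSMGCL replicate 1 (0.167), TLSMGCL replicate 3 (0.169) or both nearest libraries (0.0554). Of the 21 genes, 18 lay below 0, but 8 did without TLSMGCL replicate 2.

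Regulators of intermediate mesoderm, which forms the kidneys, held the largest fall that passed the test. Pax2, Osr1, Lhx1, Ret and Emx2 fell and none rose, 5 of 12 tested (of 14 listed), with a median log2 difference of -0.43. Pax2 (ENSMUSG00000004231.15, chromosome 19, 44756045 to 44837871), a paired-box gene of the nephric duct, measured 5.38, 7.16 and 4.06 TPM without LDN and 0.257, 0.192 and 0.152 TPM with it. All LDN libraries were also below the 96 h, Gastruloid and TLSMG means of 2.02, 1.08 and 2.08 TPM. This corresponds to a log2 difference of -2.42 ± 0.15 (limma adjusted p = 6.43e-06), a 27.6-fold lower mean. Osr1 (ENSMUSG00000048387.8, chromosome 12, 9570116 to 9581500), the early zinc-finger regulator of this tissue and of lateral mesoderm, measured 1.498, 3.35 and 2.59 TPM against 0.0328, 0.0617 and 0.0459 TPM. It was nearly undetected in all 3 LDN libraries, and TLSMG had a mean of 10.3 TPM. The fit gave a log2 difference of -1.70 ± 0.23 (limma adjusted p = 0.00302), a 52.9-fold lower mean.

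Lhx1 (ENSMUSG00000018698.15, chromosome 11, 84518284 to 84525535), a LIM homeobox gene of the nephric duct and of early mesoderm, measured 15.6, 15.7 and 11.7 TPM in TLSMGC and 7.05, 5.16 and 6.82 TPM in TLSMGCL. It was lower with LDN in every library without being lost from any. On the log2 scale the difference was -1.06 ± 0.13 (limma adjusted p = 0.00101). Ret, the receptor for GDNF on the nephric duct, measured 5.54, 5.48 and 2.67 TPM and then 2.02, 1.76 and 1.79 TPM, so TLSMGC replicate 3 lay near the LDN libraries. Its log2 difference was -0.92 ± 0.17 (limma adjusted p = 0.0228). Leaving out any 1 library except TLSMGC replicate 3 raised that p to between 0.0577 and 0.102, the highest without TLSMGC replicate 2. Emx2, a homeobox gene of the urogenital epithelium, had means of 12.4 and 8.09 TPM (log2 difference -0.57 ± 0.12, limma adjusted p = 0.0431). Its call was lost without TLSMGC replicate 1 (0.115), TLSMGC replicate 2 (0.166), TLSMGCL replicate 1 (0.137), TLSMGCL replicate 2 (0.124) or both nearest libraries (0.105). Not all members moved: Eya1 (28.7 and 25.8 TPM) had overlapping libraries, and Sall1 had means of 54.7 and 46.6 TPM (limma adjusted p = 0.0718). Wt1 libraries overlapped too, but the gene was nearly undetected in both groups (0.0140 and 0.0370 TPM), so a fall could not be seen. Gata3, also in this list, had a lower mean with LDN without passing, and its values are given below with the surface ectoderm genes. Pax8 and Gdnf did not reach the filter, which was set on the mean over all 15 libraries, with means of 0.454 and 1.25 TPM without LDN. The 14 genes summed to 121 to 142 TPM in TLSMGC and 85.8 to 104 TPM in TLSMGCL.

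Foxf1 fell and Tnnt2 rose among 10 lateral plate and cardiac genes tested (of 18 listed), with a median log2 difference of -0.44. Foxf1 (ENSMUSG00000042812.5, chromosome 8, 121084386 to 121088144), a forkhead gene of lateral plate mesoderm that overlaps Gm20388 on the same strand, measured 3.48, 3.13 and 3.12 TPM against 0.626, 0.683 and 0.793 TPM. The TLSMGC libraries were tightly grouped, and no LDN library reached 1 TPM. The fitted log2 difference was -1.32 ± 0.19 (limma adjusted p = 0.00461). Hand1, another lateral plate regulator, was listed at 0 in every LDN library and had a mean of 0.771 TPM without LDN (adjusted p = 0.556). Tnnt2, the cardiac troponin T gene, measured 9.11, 5.85 and 4.08 TPM without LDN and 16.6, 12.6 and 16.2 TPM with it. It is the list's single rise and no regulator of lateral mesoderm. In the fit its log2 difference was 1.18 ± 0.26 (limma adjusted p = 0.0483), with the call lost without any single library except TLSMGC replicate 1, at adjusted p of 0.067 without TLSMGCL replicate 2 to 0.16 without TLSMGCL replicate 1. The cardiac genes Nkx2-5 and Tbx5 had means under 1 TPM in both groups and Myl7 was listed at 0 in all 6 libraries.

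**Figure D3:**
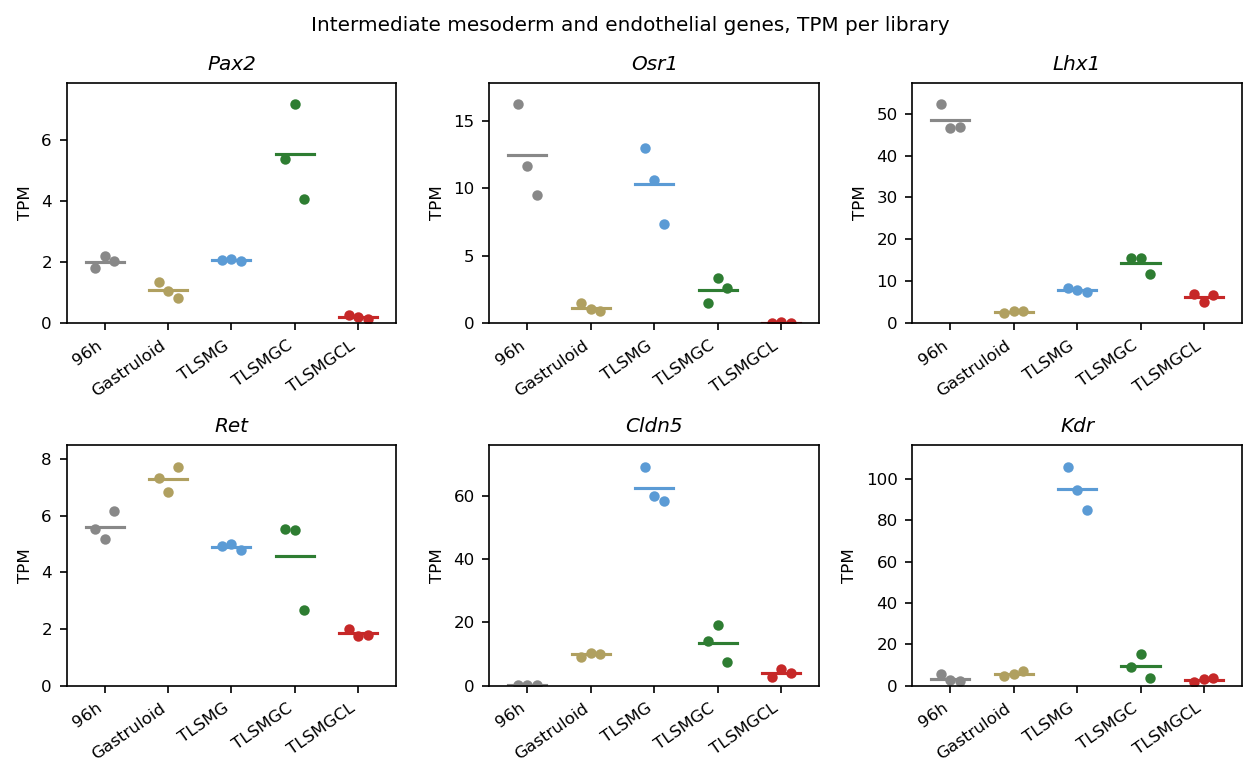
TPM of 4 intermediate mesoderm genes and 2 endothelial genes in each of the 15 libraries (points), by group, with bars at group means and linear axes from 0. Pax2 is highest in TLSMGC and lowest in TLSMGCL, whereas Cldn5 and Kdr vary within TLSMGC, where replicate 3 comes near TLSMGCL and replicate 2 is highest.

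Endothelial genes mostly had lower levels with LDN, and 4 of 18 fell: Etv2, Tek, Cldn5 and Tal1. The median log2 difference was -0.96, with 17 of 18 below 0. How many passed rested on single libraries: 12 without TLSMGC replicate 3, 11 without both nearest libraries, and 0 without TLSMGC replicate 2, without TLSMGCL replicate 1 or when the fit held the 6 libraries only. With any other single library left out, the count was 2. Cldn5 (ENSMUSG00000041378.2, chromosome 16, 18776847 to 18778262), the endothelial tight junction claudin, measured 14.1, 19.3 and 7.42 TPM in TLSMGC and 2.75, 5.24 and 4.17 TPM in TLSMGCL. TLSMGC spread widely, yet its lowest library was above all LDN libraries. The log2 difference was -1.47 ± 0.25 (limma adjusted p = 0.0116), against 0.051 without TLSMGC replicate 2 and 0.0577 without TLSMGCL replicate 1.

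Tek, the angiopoietin receptor gene, measured 3.20, 6.79 and 1.51 TPM against 0.481, 0.849 and 0.856 TPM (log2 difference -1.34 ± 0.28, limma adjusted p = 0.0393). Etv2, the ETS factor that starts the endothelial and blood programme, had means of 3.29 and 1.16 TPM (log2 difference -0.98 ± 0.21, limma adjusted p = 0.0391), and Tal1 had means of 3.12 and 0.731 TPM (-1.18 ± 0.26, limma adjusted p = 0.0482). The call of Tek was lost without TLSMGC replicate 1 (0.0927), TLSMGC replicate 2 (0.0604), TLSMGCL replicate 1 (0.142), TLSMGCL replicate 2 (0.0756) or TLSMGCL replicate 3 (0.0908). That of Etv2 was lost without TLSMGC replicate 1 (0.0529), TLSMGC replicate 2 (0.131), TLSMGCL replicate 1 (0.15), TLSMGCL replicate 2 (0.0947) or both nearest libraries (0.0903), and that of Tal1 without TLSMGC replicate 2 (0.106), TLSMGCL replicate 1 (0.167) or TLSMGCL replicate 3 (0.153). Tal1 also lost its call after median-of-ratios scaling and with FPKM, and in 9 of the 14 alternatives that tested it. Kdr, the VEGF receptor that marks the lineage, measured 9.05, 15.3 and 4.01 TPM without LDN and 1.94, 3.31 and 3.73 TPM with it, a narrow separation, and did not pass (adjusted p = 0.122). TLSMGC replicate 2 was the highest and replicate 3 the lowest or close to it in each of these genes. The 18 genes summed to 165, 197 and 124 TPM in TLSMGC and 144, 172 and 123 TPM in TLSMGCL, so the sums of the 2 groups overlapped. Lmo2, a transcriptional cofactor gene, was the member above 0, with means of 82.7 and 117 TPM and overlapping libraries (adjusted p = 0.541). With Lmo2 set aside after its level was seen, the other 17 genes summed to 71.2, 131 and 36.2 TPM in TLSMGC and 18.7, 38.4 and 32.5 TPM in TLSMGCL, where TLSMGC replicate 3 lay inside the LDN range. In TLSMG, the group with Matrigel alone, these sums were 373 to 452 TPM with Lmo2 and 352 to 431 TPM without it. Of 9 blood genes, 5, among them the globins Hbb-y, Hbb-bh1 and Hba-x, were listed at 0 in all 6 libraries, and the only one tested, Runx1, had means of 0.601 and 0.293 TPM (adjusted p = 0.682).

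Paraxial mesoderm forms the somites, and 1 gene was called in each of its presomitic, segmentation and somite lists, of 20, 21 and 13 tested. The share called over all genes tested was 1.18%. In these lists 75.0%, 33.3% and 30.8% of the genes lay below 0, against 60.7% of all genes tested. Of 20 presomitic and tailbud genes, Msgn1 fell and none rose. Msgn1 (ENSMUSG00000047002.2, chromosome 12, 11208360 to 11208972), the mesogenin gene of the presomitic mesoderm, measured 35.9, 28.8 and 45.0 TPM without LDN and 15.0, 17.0 and 14.2 TPM with it. The LDN libraries were alike, while TLSMGC varied more and stayed above them. This corresponds to a log2 difference of -1.18 ± 0.22 (limma adjusted p = 0.0194), and the call was lost without TLSMGC replicate 1 (0.059), TLSMGC replicate 3 (0.0558), TLSMGCL replicate 1 (0.0741), TLSMGCL replicate 3 (0.0781) or both nearest libraries (0.0907). Tbx6, a regulator of the same tissue, had means of 61.6 and 57.1 TPM with overlapping libraries, and T, the Brachyury gene, had 44.3 and 33.6 TPM (adjusted p = 0.91 and 0.44). The list's median log2 difference was -0.10.

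Of 21 segmentation genes, Notch1, the receptor of the clock's Notch pathway, rose, from 68.0, 51.6 and 56.1 TPM to 108, 77.7 and 95.6 TPM (log2 difference 0.67 ± 0.14, limma adjusted p = 0.0426). TLSMGCL replicate 2 was the lowest of its group, still above all TLSMGC libraries. The call was lost without TLSMGC replicate 2 (0.166), TLSMGC replicate 3 (0.0911), TLSMGCL replicate 1 (0.16), TLSMGCL replicate 3 (0.132) or both nearest libraries (0.0576). The boundary genes Mesp2 (6.64 and 10.9 TPM without and with LDN) and Ripply2 (3.68 and 5.59 TPM) and the clock gene Hes7 (37.9 and 36.2 TPM) did not pass (adjusted p = 0.308, 0.593 and 0.956).

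Of 13 somite genes tested, Aldh1a2 rose. Aldh1a2 (ENSMUSG00000013584.5, chromosome 9, 71215789 to 71296243), which makes retinoic acid in the somites, measured 158, 119 and 128 TPM in TLSMGC and 239, 222 and 249 TPM in TLSMGCL. Every LDN library exceeded every other 120 h library, with means of 36.6 TPM in TLSMG and 40.9 TPM in Gastruloid. The fit gave a log2 difference of 0.82 ± 0.12 (limma adjusted p = 0.00556). Uncx, a homeobox gene of the caudal somite, measured 18.0, 16.0 and 18.0 TPM against 39.5, 33.6 and 34.5 TPM. Despite a 2.07-fold higher mean and widely separated groups it did not pass (log2 difference 1.00 ± 0.26, adjusted p = 0.0911). The pan-somitic genes Meox1 (229 and 279 TPM) and Tcf15 (322 and 365 TPM) had higher means with LDN, without overlap and without passing (adjusted p = 0.152 and 0.75). Higher levels with LDN without overlap occurred in 5.48% of all genes tested. Summed TPM of the list was 815 to 905 in TLSMGC and 998 to 1151 in TLSMGCL.

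The sclerotome markers Pax1 and Pax9 stayed under 1 TPM on average in both groups. Of 11 dermomyotome genes, Lbx1 (ENSMUSG00000025216.9, chromosome 19, 45232684 to 45235812), a homeobox gene of migrating muscle precursors and of the dorsal spinal cord, fell from 2.35, 3.68 and 2.75 TPM to 0.795, 0.636 and 0.580 TPM. No LDN library reached 1 TPM, and the log2 difference was -1.22 ± 0.15 (limma adjusted p = 0.00115). Pax3, which marks the dermomyotome and the dorsal neural tube, had means of 40.9 and 37.2 TPM (adjusted p = 0.837).

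**Figure D4:**
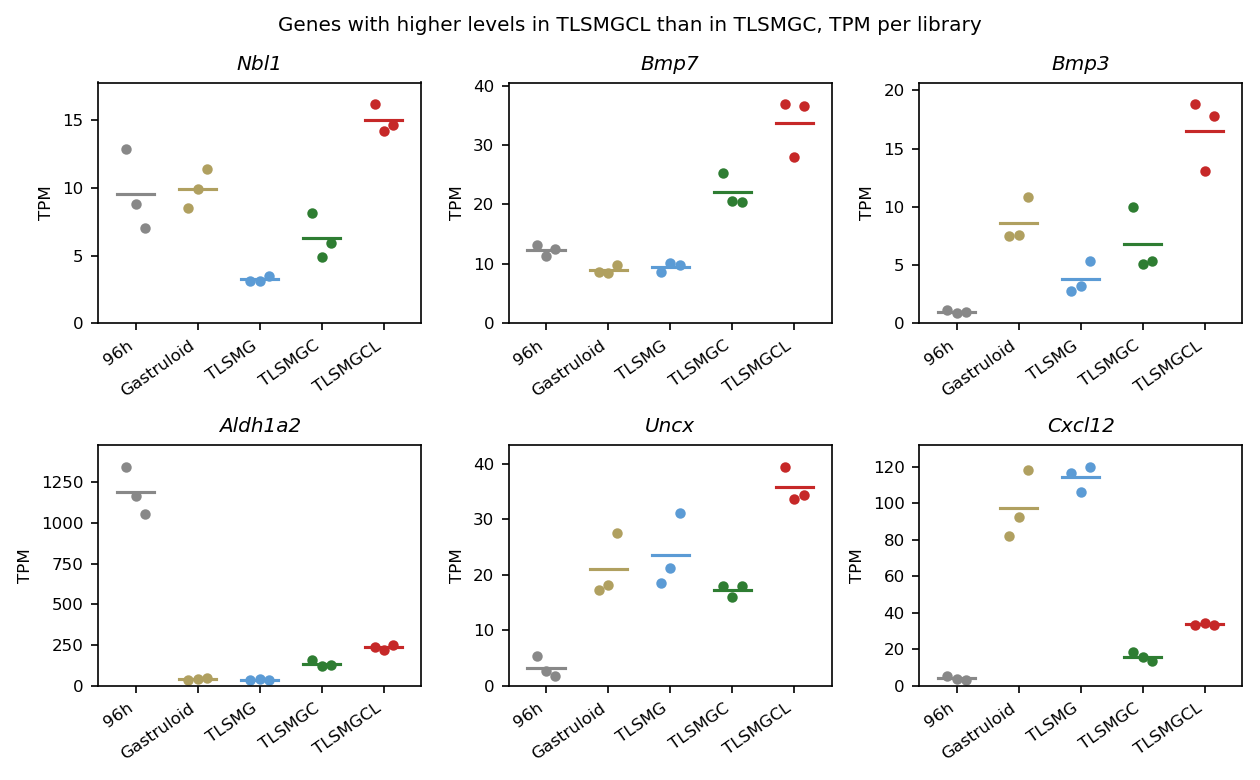
TPM of 6 genes with higher means in TLSMGCL than in TLSMGC, in each of the 15 libraries (points), by group, with bars at group means and linear axes from 0. The red and green points do not overlap in any panel. Uncx did not pass the test, and Aldh1a2 at 96 h (mean 1189 TPM) is far above all 120 h groups.

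Aldh1a2 and Crabp1 rose among 11 retinoic acid genes tested. Crabp1, a retinoic acid binding protein gene, measured 363, 326 and 383 TPM without LDN and 554, 683 and 603 TPM with it (log2 difference 0.78 ± 0.17, limma adjusted p = 0.0475). The groups were clearly apart, but the call was lost when any single library was left out, with adjusted p from 0.0689 without TLSMGC replicate 3 to 0.169 without TLSMGC replicate 2. Crabp2 had the opposite order, with means of 347 and 222 TPM (adjusted p = 0.199). The retinoic acid response gene Rarb had means of 2.47 and 1.52 TPM (adjusted p = 0.379).

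In the dorsal neural and neural crest list, 2 of 15 genes tested rose (Zic2, Crabp1) and 2 fell (Msx1, Lmx1b). Lmx1b, a LIM homeobox gene of the roof plate and dorsal limb, had means of 4.25 and 1.47 TPM (log2 difference -1.07 ± 0.16, limma adjusted p = 0.00497; 0.0858 in a fit of the 6 libraries alone). Zic2, a zinc-finger gene of the dorsal neural tube and early mesoderm, measured 115, 82.3 and 85.1 TPM against 174, 137 and 166 TPM (log2 difference 0.76 ± 0.14, limma adjusted p = 0.0223). Its groups were apart, but the call was lost without TLSMGC replicate 2 (0.102), TLSMGC replicate 3 (0.0609), TLSMGCL replicate 1 (0.1), TLSMGCL replicate 3 (0.0796) or both nearest libraries (0.0538). The crest genes Sox10 and Foxd3 stayed under the filter in both groups. Of 11 neural tube genes, Nkx6-1, a homeobox gene of the ventral tube, fell from a mean of 3.19 to 1.14 TPM (log2 difference -0.94 ± 0.20, limma adjusted p = 0.0354). Its adjusted p was 0.0796 (TLSMGCL replicate 3) to 0.115 (TLSMGC replicate 1) with 1 of 5 libraries left out, all but TLSMGC replicate 3, and 0.0515 without both nearest libraries. Sox2 had means of 26.9 and 31.9 TPM and Sox1 of 2.10 and 1.99 TPM, neither called (adjusted p = 0.608 and 0.963).

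Of 27 Hox genes tested, 2 neighbours in the HoxD cluster, Hoxd8 and Hoxd9, fell and none rose. Hox genes give cells their position along the body axis. Hoxd9 (ENSMUSG00000043342.9, chromosome 2, 74697727 to 74700208) measured 17.0, 16.9 and 21.5 TPM without LDN and 6.79, 6.45 and 4.31 TPM with it. The groups were far apart, the lowest TLSMGC library being replicate 2. On the log2 scale the difference was -1.52 ± 0.23 (limma adjusted p = 0.00706). Hoxd8 had means of 7.60 and 4.41 TPM (-0.67 ± 0.12, limma adjusted p = 0.0153), with adjusted p of 0.0523, 0.0516, 0.0707 and 0.0677 without TLSMGC replicate 2, TLSMGCL replicate 1, TLSMGCL replicate 3 and both nearest libraries. The genes at the same cluster position elsewhere, Hoxa9 (6.78 and 4.99 TPM), Hoxb9 (102 and 96.6 TPM) and Hoxc9 (9.11 and 8.42 TPM), had overlapping libraries. Hoxd10, Hoxd11, Hoxd12 and Hoxd13 did not reach the filter.

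Of 15 WNT feedback and target genes, read because both groups received CHIR99021, Tcf7 fell and none rose, with a median log2 difference of -0.19. Tcf7, a WNT effector, had means of 165 and 128 TPM (-0.37 ± 0.08, limma adjusted p = 0.0399), lost without any single library at adjusted p of 0.0531 (TLSMGC replicate 3) to 0.126 (TLSMGC replicate 1). Axin2 had means of 101 and 90.0 TPM and Lef1 of 105 and 105 TPM (adjusted p = 0.696 and 0.981). Dkk1, a secreted WNT inhibitor, had means of 3.84 and 1.25 TPM (adjusted p = 0.0859). None of the 22 listed FGF ligand and target genes tested was called by limma, and 4 had an unadjusted p under 0.05. Within the list the largest difference was that of Fgf3, with means of 5.39 and 3.47 TPM (adjusted p = 0.191). The list leaves out the FGF ligand gene Fgf9, which fell (log2 difference -1.41, limma adjusted p = 0.000418) and is described below. It also leaves out Dusp5 and Fgfrl1, which fell as well (limma adjusted p = 0.0243 and 0.0391). Among 9 notochord and hedgehog genes tested, the single call was Nog.

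**Figure D5:**
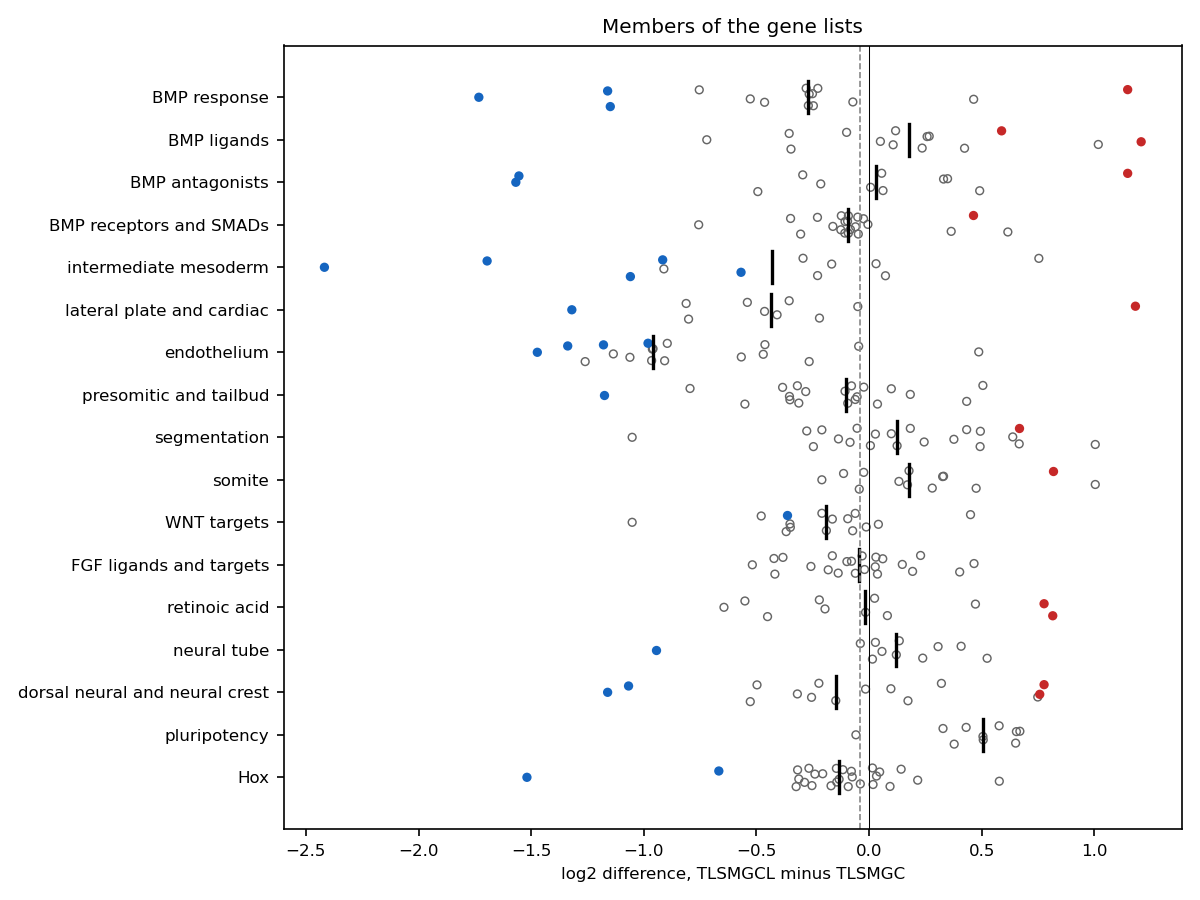
Log2 difference in TPM + 1 between TLSMGCL and TLSMGC for every tested member of 17 gene lists (rows, 1 point per gene), with black bars at list medians and a dashed line at the median of all genes. Filled points (red higher, blue lower) passed the adjusted p of 0.05. Endothelial points lie mostly left of 0 with a median of -0.96, while receptor and SMAD genes cluster near 0.

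Of the 12 largest falls among genes reaching 5 TPM, those not yet described were Phlda2, Nepn, Itga8, Fgf9 and Rasip1. Phlda2 (ENSMUSG00000010760.5, chromosome 7, 143501545 to 143503150), a maternally expressed imprinted gene that restrains placental growth, measured 14.5, 16.7 and 20.4 TPM and then 3.92, 6.53 and 3.59 TPM. The groups were far apart, and the log2 difference was -1.70 ± 0.17 (limma adjusted p = 0.000244). Itga8 (ENSMUSG00000026768.10, chromosome 2, 12106632 to 12301922), an integrin subunit of kidney mesenchyme, measured 10.3, 10.3 and 7.73 TPM against 2.91, 2.23 and 2.91 TPM (log2 difference -1.50 ± 0.14, limma adjusted p = 0.000115). Its annotated span overlaps Gm37701 on the same strand. Fgf9 (ENSMUSG00000021974.15, chromosome 14, 58070547 to 58112720), a secreted growth factor that keeps nephron progenitors, measured 9.52, 12.2 and 8.42 TPM against 3.48, 2.91 and 3.01 TPM (log2 difference -1.41 ± 0.15, limma adjusted p = 0.000418).

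Nepn, which encodes a secreted leucine-rich repeat protein, measured 11.9, 11.97 and 2.79 TPM in TLSMGC and 1.18, 2.09 and 2.33 TPM in TLSMGCL. TLSMGC replicate 3 was thus close to the LDN libraries. Its log2 difference was -1.61 ± 0.36 (limma adjusted p = 0.0488), and the call was lost on leaving out any single library but that one, with adjusted p from 0.0939 without TLSMGCL replicate 2 to 0.194 without TLSMGC replicate 2. Rasip1, needed for lumens of blood vessels, had means of 10.2 and 3.95 TPM (-1.16 ± 0.23, limma adjusted p = 0.0311). It was not called without TLSMGC replicate 1 (0.0782), TLSMGC replicate 2 (0.104), TLSMGCL replicate 1 (0.114) or TLSMGCL replicate 3 (0.0786), and it overlaps Izumo1 on the same strand.

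Of the 12 largest rises by the same rule, those not yet described were Gprc5c, Pde4b, Vtn, Eya2, Cxcl12, Nnat, Islr, Ngfr and Arhgef26. Eya2 (ENSMUSG00000017897.18, chromosome 2, 165595032 to 165771727), a transcriptional coactivator active in somites, measured 17.9, 13.5 and 15.3 TPM without LDN and 35.2, 29.0 and 36.1 TPM with it. Each LDN library was above all TLSMGC libraries, and the log2 difference was 1.06 ± 0.16 (limma adjusted p = 0.00556). Cxcl12 (ENSMUSG00000061353.11, chromosome 6, 117168535 to 117181367), a chemokine that guides migrating cells, measured 18.5, 16.0 and 13.4 TPM against 33.2, 34.6 and 33.2 TPM. The LDN libraries agreed closely, below the TLSMG mean of 114 TPM, and the log2 difference was 1.04 ± 0.16 (limma adjusted p = 0.00757; 0.0617 without both nearest libraries). Ngfr, the low-affinity neurotrophin receptor, measured 4.46, 4.98 and 4.19 TPM against 10.3, 8.78 and 8.83 TPM (log2 difference 0.89 ± 0.10, limma adjusted p = 0.000418). Islr, a surface protein of mesenchyme, measured 10.4, 9.37 and 10.7 TPM against 20.2, 22.4 and 19.5 TPM (log2 difference 0.96 ± 0.13, limma adjusted p = 0.00317), and its span overlaps Islr2 on the same strand.

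Gprc5c, an orphan G protein-coupled receptor, measured 39.7, 28.8 and 21.8 TPM and then 84.3, 45.1 and 88.0 TPM, with TLSMGCL replicate 2 far below the other LDN libraries. Its log2 difference was 1.22 ± 0.26 (limma adjusted p = 0.0431), and 0.131, 0.109, 0.16 and 0.166 without TLSMGC replicate 2, TLSMGC replicate 3, TLSMGCL replicate 1 and TLSMGCL replicate 3. Pde4b, a phosphodiesterase of cyclic AMP, had means of 3.81 and 9.98 TPM (1.20 ± 0.19, limma adjusted p = 0.00879). Nnat, an imprinted gene of the nervous system, had means of 38.6 and 75.0 TPM (0.98 ± 0.17, limma adjusted p = 0.0133), with adjusted p of 0.0548, 0.0604 and 0.0577 without TLSMGC replicate 1, TLSMGC replicate 2 and TLSMGCL replicate 1. Vtn, the vitronectin gene, had means of 3.41 and 7.99 TPM (1.07 ± 0.23, limma adjusted p = 0.0426), called of the single omissions only without TLSMGC replicate 1 and reaching 0.16 without TLSMGCL replicate 1 and 0.162 without both nearest libraries. Arhgef26, a guanine nucleotide exchange factor, had means of 10.9 and 20.4 TPM (0.85 ± 0.16, limma adjusted p = 0.0251), with adjusted p of 0.108, 0.0645, 0.111, 0.0874 and 0.0594 without TLSMGC replicate 2, TLSMGC replicate 3, TLSMGCL replicate 1, TLSMGCL replicate 3 and both nearest libraries. The largest rise of all, chosen after its values were seen because it missed 5 TPM, was Nptx1, a neuronal pentraxin, at 0.755, 0.669 and 0.876 TPM against 4.87, 5.17 and 4.88 TPM. Its groups were tight, and the log2 difference was 1.76 ± 0.14 (limma adjusted p = 4.73e-05).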

How the data were processed

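RNA was measured in 15 bulk libraries, 3 for each of 5 groups. The deposited TPM, FPKM and coverage values came from StringTie gene abundance tables, 1 per library, per the file headers. The submitters' processing notes name cutadapt 2.4, STAR 2.7.3a, StringTie 2.0 and build mm10. Labels describe stranded polyadenylated paired-end libraries. Lines of 1 gene ID were summed. TPM were tested on log2(TPM + 1) with limma 3.58.1 in R 4.3.3. All 15 libraries entered 1 fit with a trend in the prior variance, which left 10 residual degrees of freedom. Genes with a mean of at least 1 TPM over all 15 libraries were kept, with p-values adjusted over 14290 genes. FPKM served as an alternative and coverage as a measure of depth. With no counts, no detection floors were computed. Tables and figures were made in Python 3.11.15. The procedure was tested on simulated data.

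Genes named are the 12 largest rises and falls (adjusted p under 0.05, at least 5 TPM in the higher group, no overlap), called members of 31 lists, and the largest difference of lists without a call. Members of the BMP and intermediate mesoderm lists are given as counts with single values. Members and lists were chosen with earlier results of these data known. The call in the sclerotome list is not reported here. Single-cell and NanoString data were not analysed here.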

Additional observations from a re-analysis of the deposited data

How the results depend on the processing

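The 169 calls became 42 (12 higher, 30 lower) in a fit of the 6 libraries alone, of which 32 were among the 169, and 46 (10 and 36) with a minimum absolute log2 difference of 1. Higher calls numbered 104 after median-of-ratios scaling, 90 with FPKM and 36 without TLSMGC replicate 3 and TLSMGCL replicate 2 together. Leaving out 1 library gave 56 to 198 calls, 17 to 56 of them higher and 33 to 159 lower, and 2 to 4 BMP response genes lower in any alternative. Other pseudocounts, filters and the prior without a trend kept the counts within 1.5 times. Same-numbered libraries did not deviate together (r = 0.104, -0.139 and -0.181 for numbers 1, 2 and 3). This gave no sign of pairing but cannot show that they were made apart. The replicate block gave 122 calls (43 higher, 79 lower). Of 49 named genes, 0 changed direction and 16 kept their call in each alternative without a minimum fold that tested them (13 to 15 of 15): Pax2, Id3, Phlda2, Nog, Hoxd9, Itga8, Fgf9, Ngfr, Islr, Eya2, Id1, Grem1, Osr1, Foxf1, Aldh1a2 and Lbx1. With the 6 libraries alone 20 of the 49 kept it. Among those that lost it there were Lhx1, Nbl1, Pde4b and Lmx1b (adjusted p = 0.0691, 0.069, 0.0858 and 0.0858). Without read counts per gene, precision at low TPM is unknown.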

Other observations

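Called differences among markers of other cell types follow, against a share of 1.18% called over all genes tested. Of 13 surface ectoderm, 13 gut endoderm and 12 primordial germ cell genes tested, limma called none, and 4, 1 and 3 had an unadjusted p under 0.05. In these lists the largest differences were those of Gata3 (means of 1.16 and 0.110 TPM without and with LDN), Trh (11.7 and 20.7 TPM) and Nanog (3.70 and 6.38 TPM), with adjusted p of 0.144, 0.161 and 0.23. Gata3 is also a member of the intermediate mesoderm list. Of 8 allantois and amnion genes tested, the single fall was Phlda2, and the list's defining gene Tbx4 had a mean under 1 TPM in both groups. Of 7 fibroblast genes tested, the collagen gene Col3a1 fell from a mean of 3.42 to 1.73 TPM (log2 difference -0.71 ± 0.14, limma adjusted p = 0.0251), and S100a4 and Lum were listed at 0 in all 6 libraries. That call was lost without TLSMGC replicate 2 (0.108), TLSMGC replicate 3 (0.0607), TLSMGCL replicate 1 (0.105), TLSMGCL replicate 2 (0.0733) or both nearest libraries (0.137).

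Pluripotency genes leaned the other way without a call: 9 of 10 had higher means with LDN, and the median log2 difference was 0.51. In limma's test none passed, and 5 had an unadjusted p under 0.05. Pou5f1, the Oct4 gene, had means of 10.1 and 13.9 TPM (adjusted p = 0.419). The list summed to 44.6, 42.2 and 79.2 TPM in TLSMGC and 94.6, 84.4 and 71.5 TPM in TLSMGCL, so TLSMGC replicate 3 lay within the LDN range.

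Of 13 imprinted growth genes tested, Phlda2 and the noncoding RNA Meg3 fell. Meg3 had means of 31.1 and 16.9 TPM (log2 difference -0.87 ± 0.17, limma adjusted p = 0.0251), with adjusted p of 0.0816, 0.084, 0.0669, 0.0796 and 0.0974 without TLSMGC replicate 1, TLSMGC replicate 2, TLSMGCL replicate 2, TLSMGCL replicate 3 and both nearest libraries. Meg3 shares its strand with small RNA genes such as Mir770. Igf2, the abundant growth factor gene of this list, had means of 336 and 473 TPM with overlapping libraries (adjusted p = 0.809). Of 12 matrix genes, the laminin chain Lama1 fell from a mean of 22.5 to 16.8 TPM (log2 difference -0.40 ± 0.08, limma adjusted p = 0.0331). Its adjusted p was 0.0904, 0.11, 0.0598, 0.0636 and 0.0622 without TLSMGC replicate 1, TLSMGC replicate 2, TLSMGCL replicate 2, TLSMGCL replicate 3 and both nearest libraries.

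None of 13 mitochondrial, 13 stress and hypoxia and 15 cell cycle genes tested was called by limma, and 1, 1 and 2 had an unadjusted p under 0.05. The cell cycle median log2 difference was 0.01, with the inhibitor Cdkn1b farthest from 0 (means of 17.7 and 10.7 TPM, adjusted p = 0.161). Egr1, an immediate early gene, was farthest among the stress genes (3.92 and 2.53 TPM, adjusted p = 0.584). All 13 mitochondrial genes lay below 0, with a median log2 difference of -0.40, but without TLSMGCL replicate 2 the median was 0.14 and 4 of 13 lay below 0. Of these genes mt-Nd4 was farthest, at 0.439 TPM in TLSMGCL replicate 2.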
